A study of Homo sapiens with 54 samples.

Results

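The small nuclear, small nucleolar and RNA polymerase III transcripts of 3 human prostate cancer cell lines were described from total RNA-seq. The 198 members were the rows of the expression table whose symbol begins with SNORD, SNORA, SCARNA, RNU or RN7S, or is RPPH1 or RMRP, with SNHG host genes left out, and whose level reached 1 CPM (reads per 1000000 of the authors' effective library size) in at least 3 of the 54 libraries. They were 198 of 19225 features. Another 101 rows had such names but did not reach that level. By class the members were 104 box C/D snoRNAs (SNORD), 56 box H/ACA snoRNAs (SNORA), 11 small Cajal body RNAs (SCARNA), 22 spliceosomal RNAs (RNU, of which 3 are pseudogenes) and 5 transcripts of RNA polymerase III (RN7SL1, RN7SL2, RN7SK, RPPH1 and RMRP). The lines were 22Rv1, C4-2 and LNCaP. 22Rv1 was established from a prostate cancer xenograft, and C4-2 is a subline of LNCaP. Cells of each line were grown in RPMI medium with 10% serum and received E2 (100 nM), OSU-ERb-12 (100 nM, written OSU below), the androgen receptor antagonist enzalutamide (Enza, 1 µM), E2 with Enza, OSU with Enza, or the ethanol vehicle, for 12 h. Every group had 3 libraries, called biological triplicates in the labels, and no group carried a genetic change made for the study. E2 is estradiol, and the series concerns estrogen receptor beta in prostate cancer. Near the level limit, SNORD87 reached 1 CPM in 3 libraries (mean 0.602 CPM) and was kept, while SNORD21 reached it in 2 libraries (mean 0.612 CPM) and was not.

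Box C/D snoRNAs guide ribose methylation and box H/ACA snoRNAs guide pseudouridylation of ribosomal RNA, small Cajal body RNAs do the same for spliceosomal RNAs, and most of them are cut from the introns of host genes. U1, U2, U4, U5 and U6 form the major spliceosome, and U11, U12, U4atac and U6atac serve the minor one. RNA polymerase III makes U6, the 7SL RNA of the signal recognition particle, the 7SK RNA that holds the elongation factor P-TEFb inactive, and the RNA subunits of RNase P (RPPH1) and RNase MRP (RMRP), which process tRNA and ribosomal RNA precursors. Several of these genes exist in near-identical copies.

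The sequences on which the results turn were taken from the hg38 genome at RefSeq coordinates, with the strand from the GENCODE v44 annotation. They are written 5′ to 3′ as DNA. The SNORD88 copies are shown because SNORD88B was lower with Enza in both 22Rv1 and LNCaP. They lie at chr19:50799439-50799535, minus strand, chr19:50799029-50799125, minus strand and chr19:50802325-50802421, minus strand, and capitals mark TGATG near the start and CTGA near the end, the core letters of boxes C and D.
SNORD88A: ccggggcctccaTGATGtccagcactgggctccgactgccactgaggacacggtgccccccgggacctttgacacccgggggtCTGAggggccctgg
SNORD88B: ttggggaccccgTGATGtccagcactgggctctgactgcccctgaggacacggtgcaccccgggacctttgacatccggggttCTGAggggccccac
SNORD88C: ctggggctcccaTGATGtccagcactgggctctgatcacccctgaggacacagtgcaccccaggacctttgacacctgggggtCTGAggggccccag
The 3 copies are 97 nt long and 85.6 to 86.6% identical. A pair of SNORD116 copies, which differed most between the lines, follows with the same letters in capitals (chr15:25087661-25087754, plus strand, and chr15:25088803-25088896, plus strand).
SNORD116-20: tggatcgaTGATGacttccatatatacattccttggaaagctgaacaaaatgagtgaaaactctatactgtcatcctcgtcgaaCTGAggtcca
SNORD116-21: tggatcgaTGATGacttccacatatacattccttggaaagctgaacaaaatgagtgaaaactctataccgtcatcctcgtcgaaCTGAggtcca
With SNORD116-20 as the first base and counting from the 5′ end, these copies differ at T21C and T69C, and the 4 copies SNORD116-18 to SNORD116-21 are 97.9 to 98.9% identical. The U2 and U4 genes with the clearest treatment response are shown with ATTTTTG in capitals, letters that contain the AUUUUUG type of site bound by Sm proteins (chr11:62841619-62841809, minus strand, and chr12:120291759-120291903, minus strand).
RNU2-2: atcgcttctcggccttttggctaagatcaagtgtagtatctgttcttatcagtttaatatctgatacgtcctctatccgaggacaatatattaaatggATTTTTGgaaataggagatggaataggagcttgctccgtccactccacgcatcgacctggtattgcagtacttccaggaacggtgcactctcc
RNU4-2: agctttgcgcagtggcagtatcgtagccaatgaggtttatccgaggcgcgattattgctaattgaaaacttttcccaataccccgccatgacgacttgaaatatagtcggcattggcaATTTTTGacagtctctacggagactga

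Over all members the letters of both boxes, TGATG within the first 25 bases and CTGA within the last 20, were found in 75 of the 91 box C/D members with an annotated strand and in 0 of 56 box H/ACA members. ACA within the last 10 bases was found in 51 of 56 box H/ACA members and in 7 of 91 box C/D members. Most members thus carried the letters that go with the class in their name. RN7SL1 and RN7SL2 are close copies, RNU6-1, RNU6-2 and RNU6-9 are identical, and the 5 SNORD3 copies (U3, which guides early ribosomal RNA cleavage) are 98.2 to 100% identical, so values of single copies are uncertain because reads can be shared between them.

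Library depth was 32819568 to 52417050 reads assigned to features, so that 1 read was worth 0.0204 to 0.0323 CPM. The 9 luminal prostate markers listed were in the table, with summed levels of 1505 to 1863 CPM in 22Rv1, 3767 to 6439 CPM in C4-2 and 3020 to 5967 CPM in LNCaP. Of the other cell types, 1 of 3 basal, 2 of 4 fibroblast and 1 of 4 leukocyte markers were in the table. The fibroblast markers summed to 2.2 to 3.96 CPM in 22Rv1, 7.15 to 10.8 CPM in C4-2 and 14.6 to 20.3 CPM in LNCaP, and their part in the line differences was not tested. The basal and leukocyte markers summed to at most 1.77 and 1.12 CPM in any library. C4-2 vehicle library 1 carries the cell line tag 22Rv1 but is titled C4-2 and was kept there. In that library the coding gene SNRPN read 3.26 CPM, where it read 0 to 0.0521 CPM in 22Rv1 libraries and 2.6 to 4.3 CPM in C4-2. The OSU groups are titled WT, so that their treatment rests on the treatment tag alone. Some libraries stood apart from their triplicate by the 5 Pol III members: their median deviation from the group mean was -0.31 (log2) in LNCaP vehicle 1, 0.37 in 22Rv1 OSU+Enza 2, -0.37 in 22Rv1 Enza 2 and -0.22 in C4-2 Enza 2, against 0.07 in C4-2 vehicle 1. In bulk RNA, fewer cells of a type and less RNA per cell cannot be told apart.

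The 5 Pol III members supplied nearly all of the reads of the group. Of the reads of a library assigned to features, they took 7.57 to 14.2% in 22Rv1 (median 9.89%), 12.4 to 16.3% in C4-2 (median 15.4%) and 12.9 to 17.2% in LNCaP (median 15.8%). Box C/D members took 0.125 to 0.345%, 0.147 to 0.26% and 0.106 to 0.207% in 22Rv1, C4-2 and LNCaP libraries. The RNU members took 0.0148 to 0.0317%, 0.0105 to 0.019% and 0.00524 to 0.0197%, with the medians in the order 22Rv1 (0.0211%), C4-2 (0.0134%) and LNCaP (0.0101%).

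**Figure D1:**
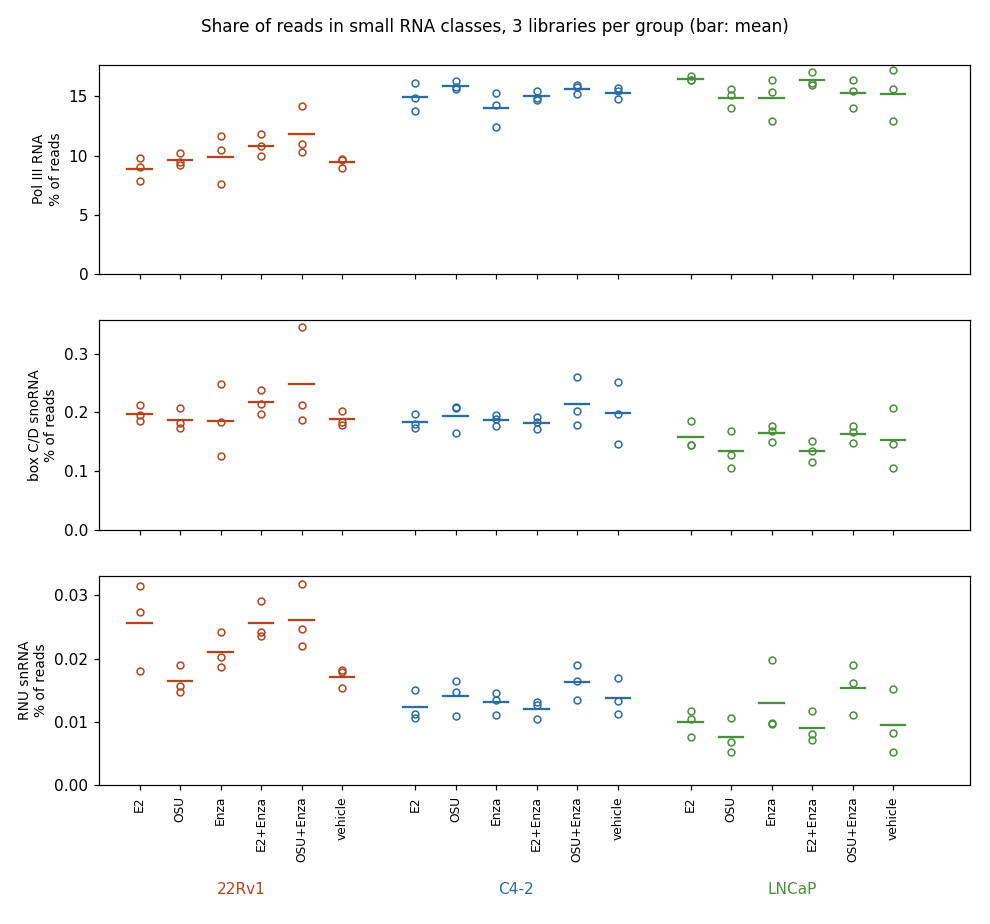
Share of the reads assigned to features (percent, 1 point per library, bar at the mean) taken by the Pol III, box C/D and RNU members in each of the 18 groups. Pol III shares lie lowest in 22Rv1 (7.57 to 14.2%), and the RNU shares of 22Rv1 (0.0148 to 0.0317%) reach above those of LNCaP (0.00524 to 0.0197%).

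Levels fell steeply from the Pol III members to the rest. Averaged over the 54 libraries, RN7SL1 stood at 45361 CPM, RN7SL2 at 42042, RN7SK at 26760, RPPH1 at 15002, RMRP at 8282 and SNORD3A at 1165 CPM. Per kilobase of transcript the first 5 were at 151708, 140609, 80602, 43995 and 30673 CPM per kb, the same order. Below them came SCARNA2 (397 CPM, 946 per kb), SNORA73A (267 CPM, 1288 per kb), SCARNA10 (184 CPM), SNORA73B (178 CPM) and SCARNA12 (176 CPM). RNU2-2, the highest spliceosomal member, averaged 78.4 CPM, or 411 per kb. In all, 31 members averaged at least 10 CPM, 127 lay between 1 and 10 CPM and 40 lay under 1 CPM.

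Level went with length. The 89 members shorter than 100 nt had a median level of 1.55 CPM and none averaged above 15.6 CPM (SNORD116-21). The 84 members from 100 to under 200 nt had a median of 2.17 CPM, and the 25 members of 200 nt or more a median of 141 CPM. CPM is not corrected for length, and the members of 200 nt or more include the Pol III members and the SNORD3 copies. Length and class were not separated here. Fragment selection in the library preparation is not given in the sources used here, and its part in this order was not tested. Of the members, 148 lie inside 1 of 77 host genes on the same strand, and 100 overlap an annotated exon of the host. Reads of a mature small RNA and reads of its host transcript cannot be told apart in these counts, and the strand setting of the counting is not given in the sources used here.

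Members varied more between triplicates than other features, with the wider gaps at the higher levels. The median SD within groups was 0.177 (log2) over the 198 members, against 0.072 over 15828 other features, not matched for level. At low levels, where most members lie, the gap was small. It was 0.19 for 76 members and 0.161 for 2731 others at a mean log2 level of -2 to 1. From 1 to 2 it was 0.169 (57 members) and 0.147 (1481 others), and from 2 to 3 it was 0.14 (29) and 0.117 (1335). Among features with a mean log2 level of 7 to 20 it was 0.124 for 13 members and 0.042 for 1347 others, and between 3 and 5 it was 0.181 for 16 members and 0.074 for 4063 others. Small values included SNORD46 (0.08) and SCARNA2 (0.091). The largest was that of SNORA53 (0.408), followed by RNU2-2 (0.362) and RNU4-2 (0.35), and RNU5A-1 had 0.321. After subtraction of group means, the Pol III members moved together from library to library. Over the 54 libraries RN7SL1 correlated at 0.97 with RN7SL2, a close copy, and at 0.94 with RPPH1, RMRP at 0.90 with RN7SL2, and RN7SK at 0.82 with RMRP. Some members of other classes followed about as closely. RMRP correlated at 0.89 with SNORA73A, RPPH1 at 0.86 with SCARNA12, and RN7SK at 0.82 with both SNORA73A and SCARNA21. RNU4-2 followed RNU2-2 (0.89), and SNORD3A followed SNORD3B-2 (0.97), a near-identical copy. The median correlation was 0.86 over the 10 pairs of Pol III members, 0.59 between Pol III members and small Cajal body RNAs, 0.28 among RNU members, 0.14 among box C/D members and 0.07 between Pol III and box C/D members. These are descriptions: paired values share a library, its depth and its RNA.

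Between vehicle-treated lines, 22Rv1 differed most. Set against LNCaP, 22Rv1 had 4 of 5 Pol III members lower, 58 of 104 box C/D members lower and 8 higher, and 20 of 56 box H/ACA members lower and 6 higher, while 13 of 22 RNU members were higher and 5 lower (limma, adjusted p under 0.05, log2(CPM + 0.5)). In all, 121 members differed, 32 higher and 89 lower, where 83.3% of all features did (40.4% higher and 43.0% lower). The members' share was 61.1%, and their median was -0.31 against -0.03 for all features. Against C4-2, 22Rv1 had 37 members higher and 68 lower, with 84.7% of all features called (41.5% higher and 43.3% lower), and a median of -0.11 against -0.02. C4-2 differed from LNCaP in 29 members higher and 57 lower, with 66.7% of all features called (34.0% higher and 32.7% lower), and a median of -0.15 against 0. The 3 comparisons share their vehicle libraries. Within 1 line, 160 members reached the level limit in 22Rv1, 170 in C4-2 and 182 in LNCaP. Some members thus entered only through the lines where they are higher, which partly fixes the direction of their difference. The p-values measure the spread between triplicates. With 1 library left out, the counts ran from 107 to 126 for 22Rv1 against LNCaP, 95 to 105 for 22Rv1 against C4-2 and 68 to 90 for C4-2 against LNCaP.

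**Figure D2:**
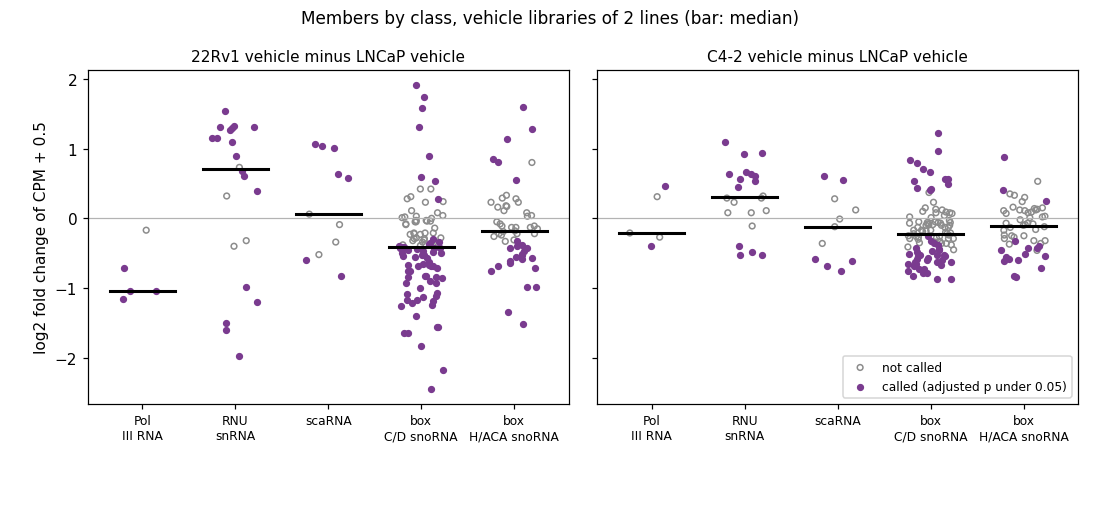
Differences of the members between vehicle-treated lines (log2, 1 point per member, 3 libraries per line) by class, 22Rv1 minus LNCaP on the left and C4-2 minus LNCaP on the right. Pol III members lie below 0 in 22Rv1 (median -1.04) and RNU members above it (median 0.71).

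Among the Pol III members, both 7SL genes, RPPH1 and RMRP were lower in 22Rv1. RN7SL1 read 21613, 24015 and 24935 CPM in 22Rv1 vehicle libraries, 62436, 60395 and 56119 CPM in C4-2 and 38730, 49587 and 58172 CPM in LNCaP, so that the 22Rv1 values lay below all others. The difference was -1.34 ± 0.20 (log2, SE, n = 3 each) against C4-2 (adjusted p = 2.94e-08, limma) and -1.04 ± 0.20 against LNCaP (adjusted p = 6.07e-06). RPPH1, the RNA of RNase P, had 7910, 8530 and 9134 CPM in 22Rv1, 16481, 15845 and 14769 CPM in C4-2 and 15068, 19576 and 23012 CPM in LNCaP. It was lower in 22Rv1 than in LNCaP by a log2 difference of -1.15 ± 0.17 (adjusted p = 1.63e-08, limma), without overlap. RMRP averaged 6049 ± 409 CPM in 22Rv1, 8542 ± 589 in C4-2 and 10000 ± 1721 in LNCaP (SD, n = 3 each). RN7SK averaged 27669 ± 1923 CPM in 22Rv1, 23607 ± 1120 in C4-2 and 31026 ± 2074 in LNCaP, and the 22Rv1 values overlapped those of LNCaP (-0.17 ± 0.15, adjusted p = 0.312, limma). C4-2 and LNCaP did not differ beyond their spread in RN7SL1 (0.31 ± 0.20, adjusted p = 0.169, limma), and the calls of RN7SL2 (0.47, adjusted p = 0.0294, limma) and RN7SK (-0.39, adjusted p = 0.0217) between them were lost when single libraries were left out. For RN7SL2 these were LNCaP vehicle 1 (0.31, adjusted p = 0.204), LNCaP vehicle 2 (0.48, 0.0503), C4-2 vehicle 1 (0.42, 0.0829) and C4-2 vehicle 2 (0.47, 0.0548), and for RN7SK they were LNCaP vehicle 2 (-0.36, 0.0666), LNCaP vehicle 3 (-0.37, 0.0554) and C4-2 vehicle 1 (-0.36, 0.0616).

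The box C/D cluster SNORD116, imprinted and known from Prader-Willi syndrome, was lower in 22Rv1 throughout: 13 of 13 members were lower than in LNCaP (median -1.55, range -2.44 to -0.5) and 13 of 13 lower than in C4-2 (median -1.39). Of all features 43.0% and 43.3% were lower in these comparisons. Within the 22Rv1 libraries only 7 of the 13 reached the level limit, against 11 within LNCaP and 13 within C4-2. The rest became members through the lines where they are higher, so their lower 22Rv1 values were partly fixed by that choice. SNORD116-21 had 3.73, 4.33 and 3.34 CPM in 22Rv1 vehicle libraries, 18.8, 21.0 and 20.6 CPM in C4-2 and 22.3, 23.4 and 22.4 CPM in LNCaP. Over all 18 libraries of a line it stayed between 2.75 and 4.48, 16.6 and 22.2, and 20.9 and 25.5 CPM, so no treatment bridged the gap between 22Rv1 and the other lines. The difference of 22Rv1 from LNCaP was -2.44 ± 0.09 (adjusted p = 2.06e-28, limma) and from C4-2 -2.27 ± 0.09 (adjusted p = 4.01e-27). SNORD116-20 had 2.45, 2.86 and 2.14 CPM in 22Rv1, 11.4, 11.7 and 10.7 CPM in C4-2 and 13.6, 12.0 and 13.3 CPM in LNCaP. The coding gene SNRPN of the same locus read 0 to 0.0521 CPM in 22Rv1 libraries, 2.6 to 4.3 CPM in C4-2 and 1.34 to 2.61 CPM in LNCaP. Copies share reads. In C4-2 against LNCaP 2 of 13 copies were called, both higher (family median -0.1), where 34.0% of all features were higher.

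Spliceosomal members differed between the lines in both directions. Of all features, 40.4% were higher and 43.0% lower in 22Rv1 than in LNCaP, and 41.5% and 43.3% than in C4-2. In C4-2 against LNCaP these shares were 34.0% and 32.7%. U6 genes, transcribed by RNA polymerase III, were lower in 22Rv1 than in LNCaP in 4 of 4 copies (RNU6-1, RNU6-2, RNU6-8 and RNU6-9, median -1.35). Of these 4, only 1 reached the level limit within 22Rv1, against 3 within C4-2 and 4 within LNCaP. The lower 22Rv1 values of the rest were partly fixed by the choice of members. The copies are 99.1 to 100% identical and are not separate cases. RNU6-1 had 0.553, 0.542 and 0.556 CPM in 22Rv1, 1.24, 1.53 and 1.96 CPM in C4-2 and 2.13, 2.55 and 2.77 CPM in LNCaP, with no overlap between lines (22Rv1 minus LNCaP -1.50 ± 0.16, adjusted p = 1.35e-11, limma). Among genes of RNA polymerase II, 22Rv1 stood above LNCaP in 4 of 5 U1 members (median 1.31, with RNU1-27P and RNU1-28P, annotated as pseudogenes, among the 4), both U2 members and 5 of 5 U5 members (median 0.9), although RNU5A-1 and RNU5B-1 lost the call with LNCaP vehicle 1 left out (0.41, adjusted p = 0.165, and 0.41, adjusted p = 0.129), RNU5A-1 also with 22Rv1 vehicle 2 left out (0.57, 0.064), and RNU5B-1 with LNCaP vehicle 2 (0.48, 0.0832) or 22Rv1 vehicle 2 (0.53, 0.0553). Against C4-2, 22Rv1 was higher in 3 of 5 U1 members and lower in RNU1-2 (-0.96 ± 0.26, adjusted p = 0.000655, limma), and higher in 1 of 2 U2 and 1 of 5 U5 members. Of the U1 members, 5 reached the level limit within 22Rv1, against 3 within C4-2 and 3 within LNCaP. Of the U5 members, 5 did so within 22Rv1 and 3 within LNCaP. The choice of members thus partly fixed these counts too. Of the 4 minor spliceosome members, 2 were higher and 0 lower in 22Rv1 than in LNCaP (range -0.4 to 1.31), 2 higher and 1 lower than in C4-2 (lowest RNU6ATAC, -0.94), and 4 of 4 higher in C4-2 than in LNCaP. Within C4-2 4 of them reached the level limit, and within LNCaP 3. RNU12, of the minor spliceosome, had 5.72, 6.68 and 5.65 CPM in 22Rv1, 4.14, 4.44 and 4.79 CPM in C4-2 and 1.41, 2.6 and 2.55 CPM in LNCaP. It was higher in 22Rv1 by 1.31 ± 0.14 (adjusted p = 6.5e-12, limma) and in C4-2 by 0.92 ± 0.14 (adjusted p = 1.51e-07) than in LNCaP, and the values of the 3 lines did not overlap. Between C4-2 and LNCaP the U2 and U4 differences depended on single libraries. RNU2-2 was 1.09 ± 0.34 higher in C4-2 (adjusted p = 0.00431, limma), but 0.65 (adjusted p = 0.105) without LNCaP vehicle 1. RNU4-2 was 0.94 higher (adjusted p = 0.0166, limma), but 0.36 (adjusted p = 0.376) without LNCaP vehicle 1, 0.84 (0.0595) without LNCaP vehicle 2 and 0.63 (0.149) without C4-2 vehicle 2.

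Of the modification guides, SNORA5C had 9.86, 10.1 and 9.78 CPM in 22Rv1, 3.71, 3.37 and 3.79 CPM in C4-2 and 2.9, 3.03 and 2.95 CPM in LNCaP, a difference from LNCaP of 1.59 ± 0.11 (adjusted p = 5.38e-19, limma). Its host gene TBRG4 differed by 0.05 ± 0.05 in that comparison (adjusted p = 0.321, limma). SNORA12 had 12.9, 13.7 and 12.3 CPM in 22Rv1, 3.42, 4.73 and 4.17 CPM in C4-2 and 4.93, 5.09 and 6.99 CPM in LNCaP. It was 1.55 ± 0.15 higher in 22Rv1 than in C4-2 (adjusted p = 5.46e-13, limma), where its host CWF19L1 gave -0.10 ± 0.07 (adjusted p = 0.198). SCARNA12, a Cajal body guide, averaged 276 ± 6.13 CPM in 22Rv1, 124 ± 8.9 in C4-2 and 135 ± 21.7 in LNCaP, and its host PHB2 was higher as well (0.61 ± 0.05 against LNCaP, adjusted p = 4.85e-17, limma). SNORD35A, from an intron of the ribosomal protein gene RPL13A, had 1.95, 1.97 and 2.31 CPM in 22Rv1, 5.05, 4.75 and 5.28 CPM in C4-2 and 6.15, 6.77 and 5.98 CPM in LNCaP. It and its host were both lower in 22Rv1 than in LNCaP (-1.40 ± 0.14 and -1.08 ± 0.07, adjusted p = 1.68e-12 and 5.28e-19, limma). SNORD13, a box C/D RNA that acts in ribosomal RNA processing, had 17.8, 19.2 and 14.7 CPM in 22Rv1, 8.87, 11.6 and 11 CPM in C4-2 and 3.04, 3.44 and 6.93 CPM in LNCaP. The lines were apart in it, at 1.91 ± 0.21 for 22Rv1 (adjusted p = 1.78e-11, limma) and 1.22 ± 0.21 for C4-2 (adjusted p = 2e-06) against LNCaP. The U3 copy SNORD3D had 20.9, 21.6 and 24.7 CPM in 22Rv1 and 4.2, 7.16 and 8.34 CPM in LNCaP (1.74 ± 0.20, adjusted p = 5.3e-11, limma). SNORD93 had 1.37, 1.32 and 1.65 CPM in 22Rv1, against 0.181, 0.165 and 0.309 CPM in C4-2. C4-2 stood below LNCaP in SNORD4A (-0.87), SNORD12C (-0.87), SNORA3B (-0.84), SNORD110 (-0.83) and SNORA3A (-0.82), and above it in SNORA27 (0.88), RNU4ATAC (0.63) and RNU5D-1 (0.61), with groups apart and calls that held with each library left out. Without LNCaP vehicle 1, C4-2 vehicle 1 and the other libraries that stood apart, RNU4ATAC gave 0.51 (adjusted p = 0.0555, limma) and RNU5D-1 0.48 (0.0635). Of 77 called members with a tested host in 22Rv1 against LNCaP, 65 had a host called the same way. Another 4 had a host called the other way and 8 a host not called. Of all features 83.3% were called, 40.4% higher and 43.0% lower. The 77 members lie in 43 hosts, and members of 1 host are not separate cases. For C4-2 against LNCaP these were 31, 12 and 17 of 60 members in 32 hosts, with 66.7% of all features called, 34.0% higher and 32.7% lower.

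Treatment calls were few beside those of the lines. Each line was fitted on its own against its vehicle, and the 5 comparisons of a line share the vehicle libraries. The members tested numbered 160 in 22Rv1, 170 in C4-2 and 182 in LNCaP. The share of all features called stands beside each count. In 22Rv1, E2 gave 5 members higher and 18 lower (27.7% of all features, 17.1% higher and 10.6% lower). Enza there gave 0 higher and 1 lower (0.659%, as 0.168% and 0.491%), E2+Enza 6 and 7 (13.8%, as 8.1% and 5.72%) and OSU+Enza 7 and 1 (1.99%, as 0.666% and 1.33%). In C4-2, Enza gave 0 members higher and 6 lower (8.44% of all features, 2.73% higher and 5.71% lower) and OSU+Enza 0 and 7 (7.39%, as 2.15% and 5.23%). E2 (5.82%, as 2.72% and 3.11%) and E2+Enza (0.0784%, as 0.0428% and 0.0356%) gave 0 member calls in C4-2 by limma, with 20 and 12 members at an unadjusted p under 0.05. In LNCaP, E2 gave 1 member higher and 4 lower (24.9% of all features, 13.3% higher and 11.6% lower) and Enza 0 and 14 (20.4%, as 9.79% and 10.6%). E2+Enza there gave 0 and 1 (7.42%, as 4.52% and 2.91%) and OSU+Enza 2 and 20 (29.7%, as 14.5% and 15.2%). As shares of the members tested, 14.4%, 0.625%, 8.12% and 5.0% were called with E2, Enza, E2+Enza and OSU+Enza in 22Rv1, and 2.75%, 7.69%, 0.549% and 12.1% in LNCaP. The member share exceeded that of all features for OSU+Enza in 22Rv1 and was at or below it in the others. Members' medians lay below those of all features in most comparisons, for example -0.18 against 0.03 for E2 in 22Rv1, -0.11 against 0 for Enza in LNCaP and -0.11 against -0.02 for Enza in C4-2.

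Single libraries moved these counts. With 1 library left out, the calls ran from 7 to 24 for E2, 0 to 6 for Enza, 2 to 12 for E2+Enza and 1 to 12 for OSU+Enza in 22Rv1, from 0 to 10 for Enza and 3 to 12 for OSU+Enza in C4-2, and from 2 to 27 for E2, 6 to 28 for Enza and 8 to 40 for OSU+Enza in LNCaP. In LNCaP, E2 gave 2 calls without vehicle 2 and 27 without vehicle 3. Enza there gave 7 without vehicle 1, 8 without vehicle 2, 28 without vehicle 3, 9 without Enza 1 and 6 without Enza 3. E2+Enza gave 2 without vehicle 1, and OSU+Enza 12, 8 and 40 without vehicle 1, 2 and 3 and 9 without OSU+Enza 2 or 3. In C4-2, E2 gave 5 without vehicle 1, 1 without E2 1 and 2 without E2 2. Enza there gave 10, 0 and 2 without vehicle 1, 2 and 3, 2 without Enza 2 and 3 without Enza 3, and OSU+Enza gave 12, 3 and 3 without vehicle 1, 2 and 3 and 3 without OSU+Enza 1 or 2. In 22Rv1, E2 gave 7 and 14 without vehicle 1 and 2, 9 without E2 1 and 11 without E2 2. Enza there gave 0 without vehicle 1 or Enza 2, 2 without vehicle 3 and 6 without Enza 3. E2+Enza gave 2 and 7 without vehicle 1 and 2, 8 without E2+Enza 1 and 6 without E2+Enza 3, and OSU+Enza gave 1 and 4 without vehicle 1 and 2, 2 without OSU+Enza 2 and 5 without OSU+Enza 3. Members called in every such refit were RNU2-2, RNU4-2, SNORD116-19 and SNORD2 for E2 in 22Rv1, RNU2-2 and RNU4-2 for E2+Enza and RNU4-2 for OSU+Enza. In C4-2 they were SNORD18C and SNORA71A for OSU+Enza. In LNCaP they were SNORD25, SCARNA9, SNORD88B and SNORD88C for Enza, SCARNA9 for E2+Enza, and SNORA61, SNORA71C, SCARNA9, SNORD88B and SNORD88C for OSU+Enza. Of these calls, those of RNU4-2 in 22Rv1, of SNORD18C and SNORA71A in C4-2 and of SCARNA9 for E2+Enza in LNCaP also held when the median of the members in each library was a covariate, and the others did not.

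**Figure D3:**
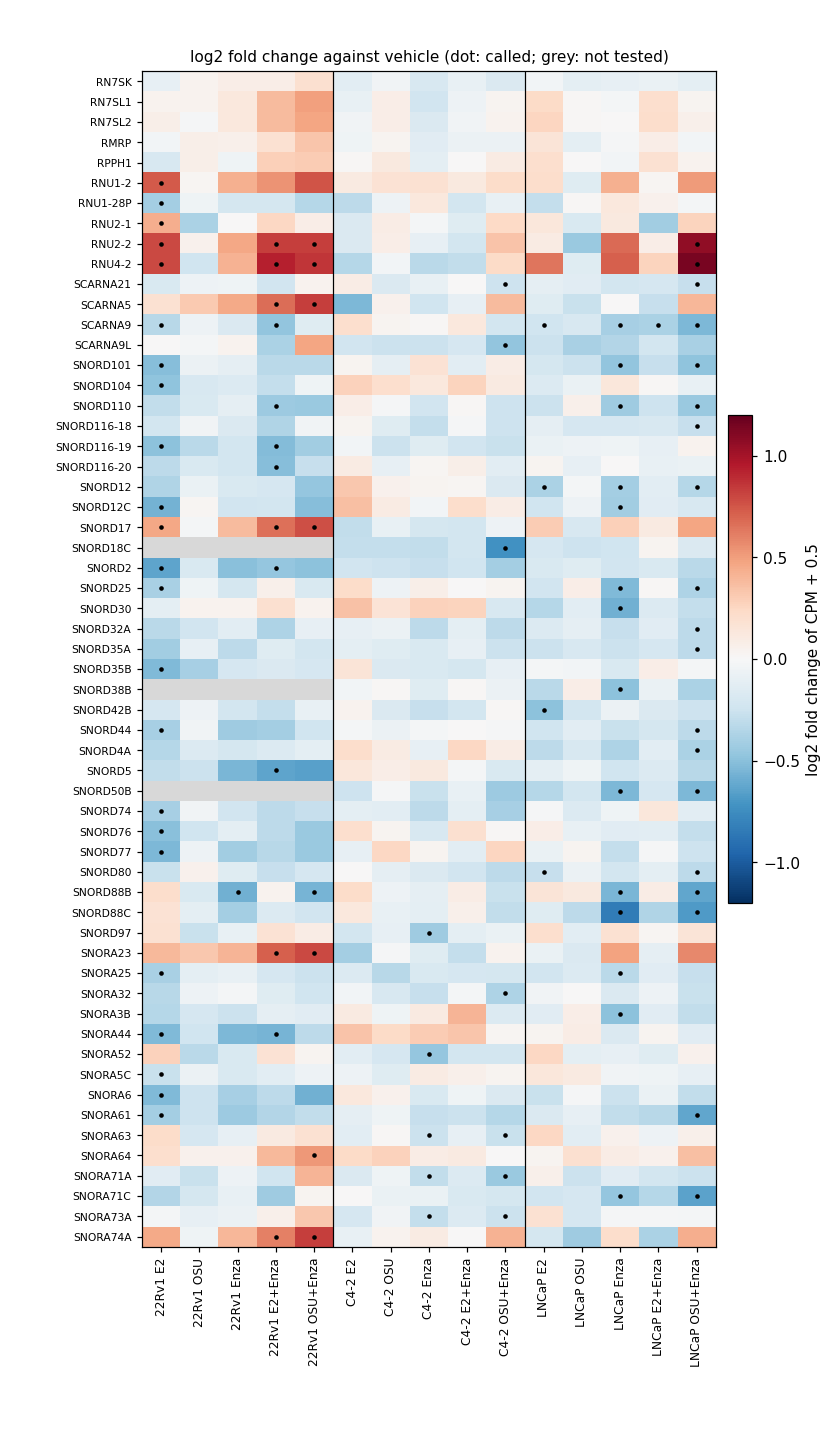
Differences from vehicle (log2, colour scale from -1.2 to 1.2) of 58 members in the 15 treatment comparisons: the 5 Pol III members and the members called in at least 1 comparison with groups that did not overlap. A dot marks a limma call and grey a member not tested in that line. The Pol III rows hold no dot, and SNORD88B has dots with Enza and OSU+Enza in 22Rv1 and LNCaP.

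The 5 Pol III members did not pass the test in any of the 15 treatment comparisons. The largest differences were in 22Rv1 with OSU+Enza. There RN7SL1 averaged 33445 CPM against 23521 CPM with vehicle (0.49 ± 0.20, 95% interval 0.08 to 0.89, adjusted p = 0.221, limma), and RMRP 7740 against 6049 CPM (0.33 ± 0.14, adjusted p = 0.257). For E2 in LNCaP the interval of RN7SL1 was -0.09 to 0.56, and for Enza in LNCaP -0.35 to 0.31. These intervals do not show that the treatments left the RNAs at the vehicle level.

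SNORD88B, a box C/D snoRNA, fell with Enza and with OSU+Enza in 22Rv1 and in LNCaP. In 22Rv1 it had 5.4, 4.42 and 5.5 CPM with Enza and 5.68, 5.59 and 4.32 CPM with OSU+Enza, against 9.21, 7.04 and 7.38 CPM with vehicle. All 6 treated values lay below the 3 vehicle values (-0.58 ± 0.12, adjusted p = 0.01, and -0.56 ± 0.12, adjusted p = 0.00838, limma). In LNCaP it had 5.02, 6.3 and 4.71 CPM with Enza and 5.69, 4.37 and 5.1 CPM with OSU+Enza, against 7.99, 8.23 and 7.83 CPM with vehicle, again without overlap. The differences were -0.55 ± 0.12 (adjusted p = 0.00117, limma) and -0.62 ± 0.12 (adjusted p = 0.000238). With E2+Enza the values were near vehicle, at 8.65, 8.52 and 7.17 CPM in 22Rv1 and 9.42, 7.08 and 9.33 CPM in LNCaP, and overlapped it. C4-2 had 6.82, 7.46 and 6.29 CPM with Enza, against 7.13, 7.91 and 7.26 CPM with vehicle (-0.11 ± 0.11, adjusted p = 0.543, limma). A difference between lines in the Enza or OSU+Enza response of SNORD88B was not called (limma F test), so no line difference is shown. The LNCaP calls held with each library left out, but those in 22Rv1 did not: Enza gave -0.47 (adjusted p = 0.165) without vehicle 1 and -0.48 (0.122) without Enza 2, and OSU+Enza gave -0.45 (0.105) without vehicle 1 and -0.44 (0.0659) without OSU+Enza 3. With the members' median as covariate, SNORD88B gave -0.42 (adjusted p = 0.212, limma) with Enza and -0.47 (0.0248) with OSU+Enza in 22Rv1, and -0.37 (0.0947) and -0.34 (0.244) in LNCaP, so that 1 of its 4 calls was left.

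**Figure D4:**
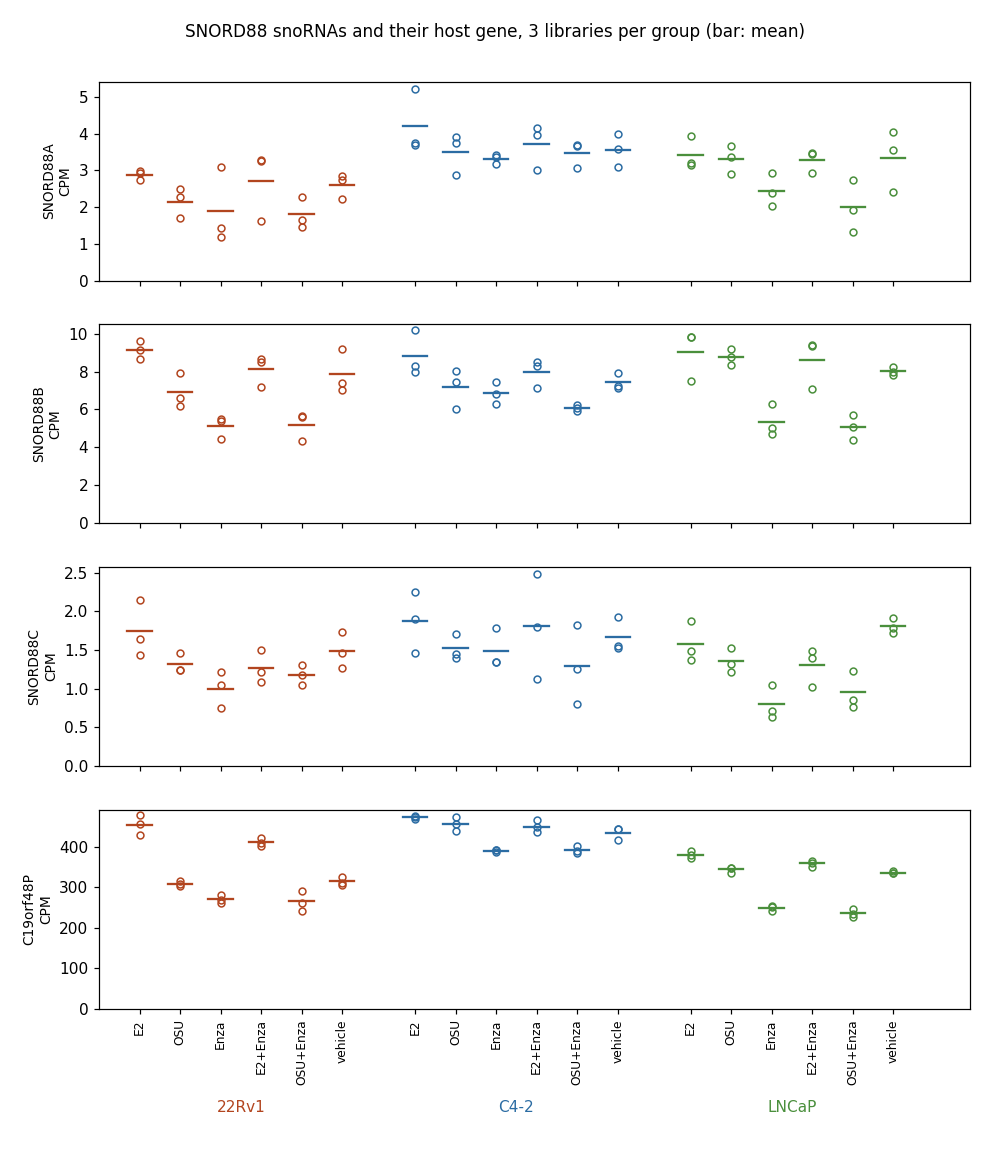
Levels (CPM, 1 point per library, bar at the mean) of SNORD88A, SNORD88B, SNORD88C and the host gene C19orf48P in the 18 groups. SNORD88B and its host lie lowest with Enza and OSU+Enza in 22Rv1 and LNCaP, and the host also does in C4-2.

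The other SNORD88 copies and the host gave like values. SNORD88C had 0.628, 1.05 and 0.711 CPM with Enza and 1.23, 0.768 and 0.854 CPM with OSU+Enza in LNCaP, against 1.91, 1.78 and 1.72 CPM with vehicle, so that the groups were apart (-0.84 ± 0.16, adjusted p = 0.000394, and -0.68 ± 0.16, adjusted p = 0.00249, limma). SNORD88C gave under that covariate -0.56 (adjusted p = 0.0557, limma) and -0.24 (0.608). SNORD88A fell with OSU+Enza in LNCaP, to 2.74, 1.93 and 1.33 CPM against 4.04, 3.54 and 2.42 CPM with vehicle (-0.63 ± 0.17, adjusted p = 0.00676, limma), with overlapping groups. That call was lost without LNCaP vehicle 1 (-0.5, adjusted p = 0.0527) or OSU+Enza 3 (-0.43, 0.0768). The host C19orf48P read 254, 241 and 250 CPM with Enza and 226, 235 and 245 CPM with OSU+Enza in LNCaP, against 339, 335 and 335 CPM with vehicle (-0.44 ± 0.03, adjusted p = 3.33e-11, and -0.52 ± 0.03, adjusted p = 8.21e-13, limma). In 22Rv1 it read 456, 479 and 429 CPM with E2, 280, 268 and 261 CPM with Enza and 242, 291 and 262 CPM with OSU+Enza, against 306, 311 and 326 CPM with vehicle. The host difference was -0.22 ± 0.05 with Enza (adjusted p = 0.0566, limma) and -0.25 ± 0.05 with OSU+Enza (adjusted p = 0.011) in 22Rv1. There SNORD88B with E2 had 8.66, 9.14 and 9.62 CPM and was not called (0.21 ± 0.12, adjusted p = 0.184, limma). In C4-2 the host read 391, 392 and 386 CPM with Enza and 403, 384 and 389 CPM with OSU+Enza. With vehicle it read 445, 443 and 417 CPM there, without overlap. The SNORD88 copies of C4-2 had a median of -0.11 with Enza and -0.27 with OSU+Enza, with 0 called. Each SNORD88 copy lies within the host, and the copies share most of their bases.

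In 22Rv1 the U2 gene RNU2-2 and the U4 gene RNU4-2 rose with E2, with E2+Enza and with OSU+Enza. RNU2-2 had 186, 161 and 91.7 CPM with E2, 167, 135 and 133 CPM with E2+Enza and 117, 187 and 135 CPM with OSU+Enza, against 65.8, 88.3 and 90.4 CPM with vehicle. All 9 treated values lay above the vehicle values, E2 library 3 by the least. The differences were 0.79 ± 0.18 (adjusted p = 0.00197, limma), 0.83 ± 0.18 (adjusted p = 0.00242) and 0.83 ± 0.18 (adjusted p = 0.0106). RNU4-2 had 56.2, 45.9 and 33.9 CPM with E2, 55, 45.1 and 47.3 CPM with E2+Enza and 37.3, 56.2 and 48.5 CPM with OSU+Enza, against 22.4, 27.6 and 26.8 CPM with vehicle. Again the groups were apart, with differences of 0.79 ± 0.15 (adjusted p = 0.000252, limma), 0.93 ± 0.15 (adjusted p = 5.99e-05) and 0.86 ± 0.15 (adjusted p = 0.000712). With Enza alone RNU2-2 had 94.5, 140 and 104 CPM (0.46 ± 0.18, adjusted p = 0.239, limma), and with OSU alone 78.7, 99.5 and 73.7 CPM. WDR74, in which RNU2-2 is annotated, differed by 0.01 ± 0.06 with E2 (adjusted p = 0.924, limma). The call of RNU2-2 with OSU+Enza was lost without 22Rv1 vehicle 1 (0.68, adjusted p = 0.113) or OSU+Enza 2 (0.64, 0.101), and without the low-value filter (0.83, 0.054). RNU2-2 with E2 and with E2+Enza was not called with the members' median as covariate (0.65, adjusted p = 0.0629, and 0.70, 0.0619, limma).

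**Figure D5:**
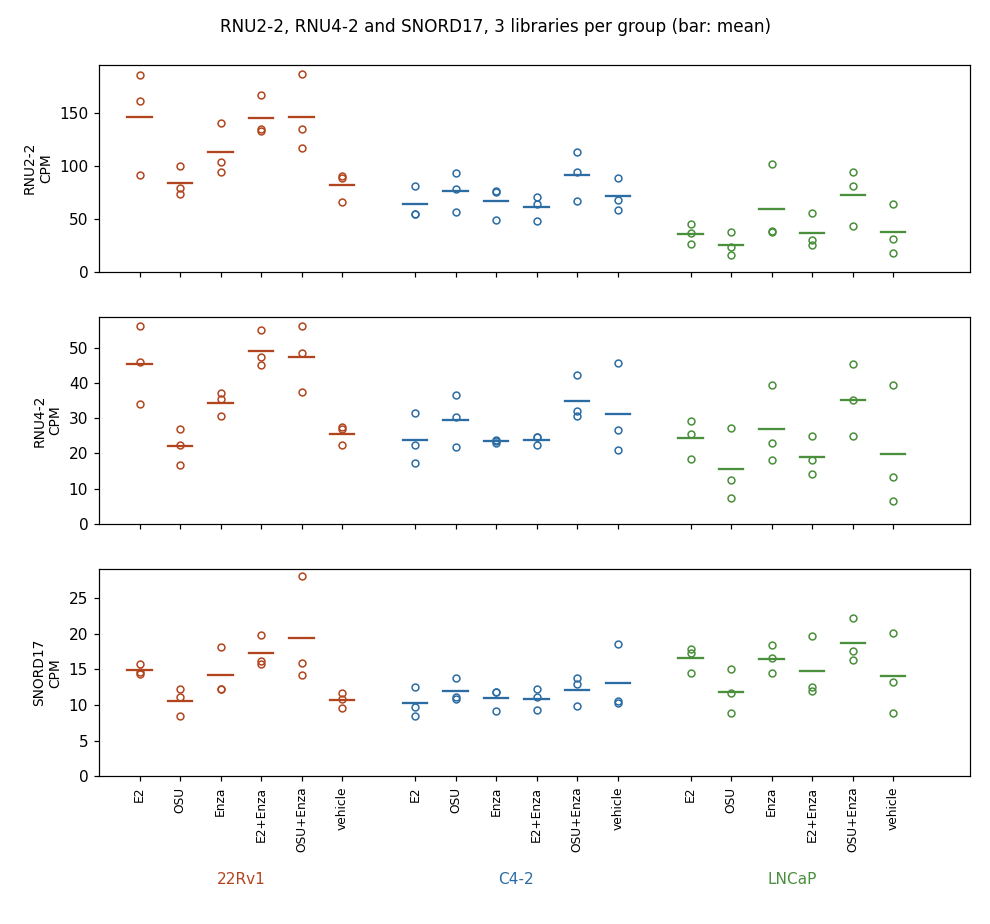
Levels (CPM, 1 point per library, bar at the mean) of RNU2-2, RNU4-2 and SNORD17 in the 18 groups. In 22Rv1 the RNU4-2 values with E2, E2+Enza and OSU+Enza (33.9 to 56.2 CPM) lie above those with vehicle (22.4 to 27.6 CPM), and the LNCaP vehicle values are widely spread.

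Of the 17 RNU members tested in 22Rv1, 4 were higher and 1 lower with E2 (median -0.04, 8 above and 9 below 0). Of all features 17.1% were higher and 10.6% lower there. Besides RNU2-2 and RNU4-2, the members higher with E2 were RNU1-2 (0.74 ± 0.21, adjusted p = 0.0103, limma), RNU2-1 (0.44 ± 0.14, adjusted p = 0.0194) and SNORD17 (0.46 ± 0.16, adjusted p = 0.0368), and each lost its call in some refits with 1 library left out. RNU1-2 did so without 22Rv1 vehicle 1 (0.67, adjusted p = 0.0562), E2 1 (0.6, 0.071) or E2 2 (0.62, 0.0658), and RNU2-1 without vehicle 3 (0.36, 0.0834), E2 1 (0.28, 0.165) or E2 2 (0.44, 0.0555). The member lower with E2 was the U1 pseudogene RNU1-28P (-0.41 ± 0.13, adjusted p = 0.0213, limma), whose call was lost without vehicle 1 (-0.44, 0.0501), vehicle 2 (-0.36, 0.0842), E2 1 (-0.4, 0.0648) or E2 2 (-0.34, 0.111). Under the covariate RNU1-2, RNU2-1 and RNU1-28P were not called (0.72, 0.38 and -0.24, adjusted p = 0.0891, 0.172 and 0.349, limma). SNORD17, a box C/D snoRNA within SNX5, had 15.8, 14.3 and 14.7 CPM with E2, 19.8, 16.2 and 15.8 CPM with E2+Enza and 14.2, 28.1 and 15.9 CPM with OSU+Enza, against 9.52, 11.7 and 10.9 CPM with vehicle, without overlap. With OSU+Enza it gave 0.77 ± 0.16 (adjusted p = 0.00959, limma), and 0.47 (adjusted p = 0.101) without OSU+Enza 2 or 0.69 (0.0782) without vehicle 1. With E2+Enza it gave 0.66 ± 0.16 (adjusted p = 0.00809), and 0.58 (0.0608) without vehicle 1. With E2 it lost the call without vehicle 1 (0.38, 0.158), vehicle 3 (0.48, 0.0625), E2 1 (0.42, 0.114), E2 2 (0.49, 0.0695) or E2 3 (0.47, 0.0573). SNORA23 had 7.21, 4.93 and 5.67 CPM with E2+Enza and 4.64, 8.78 and 5.82 CPM with OSU+Enza, against 3.22, 3.73 and 3.21 CPM with vehicle. The groups were apart. Its OSU+Enza difference of 0.79 ± 0.20 (adjusted p = 0.0335, limma) was lost without vehicle 1 (0.76, 0.139), vehicle 2 (0.85, 0.0743), vehicle 3 (0.76, 0.11), OSU+Enza 2 (0.56, 0.24) or OSU+Enza 3 (0.83, 0.0582). Its E2+Enza call was lost without vehicle 1 (0.69, 0.0744), E2+Enza 1 (0.58, 0.0838) or E2+Enza 3 (0.74, 0.052). SCARNA5 (0.83, adjusted p = 0.0198, limma), also called with OSU+Enza, lost the call without vehicle 1 (0.63, 0.186), vehicle 2 (0.87, 0.0561), OSU+Enza 2 (0.76, 0.0937) or OSU+Enza 3 (0.80, 0.0616). For SNORA74A (0.83, adjusted p = 0.0229, limma) the values without the same libraries were 0.72 (0.149), 0.88 (0.0609), 0.60 (0.205) and 0.81 (0.0659). OSU+Enza library 2 of 22Rv1, the highest for SNORD17 and RNU2-2, is the one that stood apart by its Pol III members (0.37), whose part in these values was not tested.

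In LNCaP, RNU2-2 and RNU4-2 were called higher with OSU+Enza, but the groups overlapped. RNU2-2 had 43.4, 93.7 and 80.6 CPM, against 17.7, 31 and 63.4 CPM with vehicle (1.06 ± 0.37, adjusted p = 0.0317, limma). RNU4-2 had 24.9, 45.3 and 35.2 CPM, against 6.54, 13.2 and 39.4 CPM with vehicle (1.14 ± 0.40, adjusted p = 0.034). Vehicle 1 was the lowest and vehicle 3 the highest of the vehicle libraries for both, as for RN7SL1. Without LNCaP vehicle 1 the values were 0.63 (adjusted p = 0.222) and 0.57 (0.286). They were 1.03 (0.0821) and 1.05 (0.103) without vehicle 2, 0.84 (0.148) and 0.94 (0.141) without OSU+Enza 2, and 0.95 (0.107) and 1.12 (0.0825) without OSU+Enza 3.

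Apart from SNORD88, LNCaP cells showed a decrease of SCARNA9, a Cajal body guide within CEP295. It had 21.2, 21.8 and 25.3 CPM with E2, 19.2, 24.1 and 17.9 CPM with Enza, 20.9, 20 and 20.8 CPM with E2+Enza and 20.9, 17.6 and 16.8 CPM with OSU+Enza, against 28.4, 26.9 and 25.5 CPM with vehicle. All 12 treated values lay below the vehicle values. The differences were -0.40 ± 0.09 with Enza (adjusted p = 0.00123, limma), -0.38 ± 0.09 with E2+Enza (adjusted p = 0.00526) and -0.54 ± 0.09 with OSU+Enza (adjusted p = 2.78e-05). CEP295 fell with OSU+Enza (-0.28 ± 0.05, adjusted p = 6.83e-05, limma) and with Enza (-0.16 ± 0.05, adjusted p = 0.0188), and gave -0.05 (0.509) with E2 and -0.13 (0.107) with E2+Enza. The E2 value of SCARNA9 (-0.24 ± 0.09, adjusted p = 0.0412, limma) was no longer called without vehicle 1 (-0.2, 0.14), vehicle 2 (-0.24, 0.0885), E2 1 (-0.19, 0.178) or E2 2 (-0.21, 0.136). SNORD25, from SNHG1, had 3.93, 4.6 and 3.37 CPM with Enza, against 6.01, 6.04 and 5.76 CPM with vehicle (-0.53 ± 0.12, adjusted p = 0.00144, limma), while SNHG1 gave -0.26 ± 0.06 (adjusted p = 0.00472). SNORA61, from SNHG12, had 1.42, 1.62 and 1.37 CPM with OSU+Enza, against 3.02, 2.09 and 2.55 CPM with vehicle (-0.62 ± 0.14, adjusted p = 0.00149, limma), and SNHG12 gave -0.57 ± 0.09 (adjusted p = 1.22e-05). SNORA71C, from SNHG17, had 4.69, 4.02 and 2.99 CPM with OSU+Enza, against 6.44, 6.04 and 6.29 CPM with vehicle (-0.64 ± 0.14, adjusted p = 0.000888, limma). In each of these the treated values lay wholly below vehicle. With the members' median as covariate, SCARNA9 was called with E2+Enza (-0.22, adjusted p = 0.0487, limma) and not with E2 (-0.16, 0.0567), Enza (-0.15, 0.242) or OSU+Enza (-0.15, 0.361). Under that covariate SNORD25 with Enza gave -0.35 (0.114), and SNORA61 and SNORA71C with OSU+Enza gave -0.44 (0.237) and -0.25 (0.495).

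Over the called members with a tested host, the host was called the same way for 7 of 14 with Enza in LNCaP. With OSU+Enza there it was so for 9 of 20, and another 5 members had a host called the other way. These members lie in 11 and 16 hosts, and members of 1 host are not separate cases. In 22Rv1 with E2 the count was 4 of 18 (14 hosts) and in C4-2 with Enza 0 of 6 (6 hosts), with 0 called the other way in both. Of all features 20.4%, 29.7%, 27.7% and 8.44% were called in these comparisons. By direction, 9.79%, 14.5%, 17.1% and 2.73% were higher and 10.6%, 15.2%, 10.6% and 5.71% lower. Of the 14 LNCaP calls with Enza, 10 were box C/D members, of which 97 were tested (median -0.20), a share of 10.3% beside the 10.6% of all features that were lower. With E2 in LNCaP, SNORD80 from GAS5 had 7.34, 7.55 and 7.81 CPM, against 9.28, 10.4 and 8.34 CPM with vehicle. Its difference of -0.28 ± 0.08 (adjusted p = 0.0149, limma) was lost without vehicle 2 (-0.21, 0.115) or E2 1 (-0.26, 0.057), and GAS5 itself fell by 0.22 on the log2 scale (SE 0.05, adjusted p = 0.00102).

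Of the 18 members lower with E2 in 22Rv1, 11 were box C/D snoRNAs, of which 78 were tested (median -0.28), where 10.6% of all features were lower. SNORD2, from an intron of the translation factor gene EIF4A2, had 1.87, 2.37 and 2.88 CPM with E2, against 3.99, 3.55 and 4.19 CPM with vehicle, without overlap (-0.63 ± 0.16, adjusted p = 0.00439, limma). SNORD2 was not called with the members' median as covariate (-0.55, adjusted p = 0.074, limma). EIF4A2 gave -0.09 ± 0.05 (adjusted p = 0.135, limma). SNORD116-19 had 1.64, 1.49 and 1.44 CPM with E2, against 2.36, 2.3 and 2.4 CPM with vehicle (-0.49 ± 0.15, adjusted p = 0.0137, limma, and -0.39, 0.172, with the members' median as covariate), and was the 1 called of 7 SNORD116 members tested in this line. Of the 10 GAS5 snoRNAs, 4 were called lower (SNORD44, SNORD74, SNORD76 and SNORD77, family median -0.34), beside 10.6% of all features, and GAS5 gave -0.11 ± 0.05 (adjusted p = 0.104, limma). Each of these 4 calls was lost when single libraries were left out, 22Rv1 vehicle 1 among them: without it they were -0.4 (adjusted p = 0.0875), -0.32 (0.106), -0.46 (0.0918) and -0.48 (0.0613) in that order. Without vehicle 2, SNORD44, SNORD74 and SNORD76 gave -0.38 (0.0946), -0.37 (0.0559) and -0.45 (0.0875), and without E2 2, SNORD44, SNORD76 and SNORD77 gave -0.35 (0.122), -0.41 (0.117) and -0.42 (0.0817). SNORD44 also lost it without vehicle 3 (-0.42, 0.0564) or E2 1 (-0.35, 0.123).

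In C4-2 the calls that held in every refit were those of SNORD18C and SNORA71A with OSU+Enza. SNORD18C, within the ribosomal protein gene RPL4, had 0.75, 0.434 and 0.613 CPM, against 1.18, 1.3 and 1.47 CPM with vehicle (-0.73 ± 0.16, adjusted p = 0.00487, limma). SNORA71A, within SNHG17, had 11.9, 12.2 and 13.4 CPM, against 16.5, 19.4 and 16.1 CPM with vehicle (-0.45 ± 0.09, adjusted p = 0.00197, limma). Neither overlapped its vehicle group. With Enza, SNORA73A (U17) had 218, 188 and 209 CPM, against 225, 287 and 241 CPM with vehicle (-0.29 ± 0.08, adjusted p = 0.0249, limma). SNORA73A lost this call without vehicle 2 (-0.19, 0.176), Enza 2 (-0.23, 0.166) or Enza 3 (-0.3, 0.0607).

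OSU-ERb-12 alone gave 0 member calls in each line (limma), with 13 members at an unadjusted p under 0.05 in 22Rv1, 9 in C4-2 and 6 in LNCaP. Of all features 0.0%, 0.0% and 0.014% were called in these comparisons. The members' medians were -0.09, -0.02 and -0.07 in 22Rv1, C4-2 and LNCaP. For SNORD88B the 95% intervals of the OSU difference were -0.42 to 0.06 in 22Rv1, -0.28 to 0.16 in C4-2 and -0.12 to 0.36 in LNCaP, which bound what these triplicates can show.

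Whether a treatment acted differently on the 3 lines was tested in 1 fit of all 54 libraries. The E2 response differed between lines for 12 members, where 29.1% of all features were called, the Enza response for 2 (13.3%), the E2+Enza response for 2 (7.9%), the OSU+Enza response for 1 (6.66%) and the OSU response for 0 (0.0%). With 1 library left out these counts ran from 3 to 21 for E2, 1 to 5 for Enza, 1 to 4 for E2+Enza and 0 to 4 for OSU+Enza. SNORA44, SNORD104 and SNORD12C were called for E2 with each library left out, but with the members' median as covariate 0 members were called for E2 (adjusted p = 0.0673, 0.19 and 0.076 for SNORA44, SNORD104 and SNORD12C, limma). SNORD12C had 0.722, 1.32 and 1.18 CPM with E2, against 2.33, 1.69 and 1.48 CPM with vehicle in 22Rv1. In C4-2 it had 1.86, 1.88 and 2.62 CPM with E2, against 1.65, 1.47 and 1.47 CPM with vehicle, and in LNCaP 2.58, 2.59 and 2.73 CPM with E2, against 3.33, 3.18 and 3.12 CPM. E2 values thus lay below vehicle in 22Rv1 and LNCaP and above it in C4-2 (adjusted p = 0.00589, limma F test). SNORD104 had 6.15, 6.54 and 5.69 CPM with E2, against 9.33, 8.89 and 8.09 CPM with vehicle in 22Rv1, and 9.13, 8.51 and 8.94 CPM, against 6.88, 7.98 and 6.85 CPM in C4-2.

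The proteins that carry these RNAs were counted by list. With E2 in 22Rv1, 10 of 25 spliceosomal snRNP proteins were higher and 0 lower (median 0.12, against 0.03 for all features), as were 4 of 16 snoRNP proteins, 3 of 8 signal recognition particle proteins, 4 of 10 RNase P and MRP proteins and 4 of 22 RNA polymerase III genes, where 17.1% of all features were higher. Of the 30 snoRNA host genes tested, 6 were higher and 4 lower, where 17.1% and 10.6% of all features were. In LNCaP, Enza gave 0 higher and 4 lower of 16 snoRNP proteins (median -0.09), among them NOP56, a core box C/D protein (-0.20 ± 0.03, adjusted p = 1.05e-05, limma), and 1 higher and 6 lower of 30 host genes, where 9.79% of all features were higher and 10.6% lower. E2 in LNCaP gave 4 of 8 signal recognition particle proteins higher, SRP19 by 0.22 ± 0.05 (adjusted p = 0.000627, limma), and 7 of 30 host genes lower, SNHG3 by -0.27 ± 0.04 (adjusted p = 4.9e-06), where 13.3% of all features were higher and 11.6% lower. Between the lines, 13 of 22 RNA polymerase III genes were lower and 6 higher in 22Rv1 than in LNCaP (median -0.24, against -0.03 for all features), and 11 of 25 snRNP proteins were higher and 7 lower, where 40.4% of all features were higher and 43.0% lower.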

How the data were processed

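Total RNA of 3 cell lines under 6 treatments was sequenced in 54 libraries (18 groups of 3) with a stranded total RNA kit, per the labels' protocols. The authors' tools were FastQC, Trimmomatic, featureCounts and edgeR on hg38, per the submitters' processing notes, and the counting strand is not given in the sources used here. The deposited values, named CPM, are a score: a log2 of CPM (0.5 reads added) that the authors scaled so that each column sums to 1000000. Whole reads were recovered from every value within 0.01 reads, and CPM was computed from them. Features that reached 1 CPM in 3 or more libraries of a fit were tested with limma 3.58.1 (R 4.3.3, trended variance, Benjamini-Hochberg adjustment over all features tested, adjusted p under 0.05) on log2(CPM + 0.5). Each line was fitted alone for treatments, and all 54 libraries together for line differences. A log2 difference on this scale understates changes of low members. Since the deposited values are not counts, edgeR was not run, and voom on the recovered reads served as an alternative. The fit was tested on simulated data. Python 3.11.15 (pandas 2.3.3, numpy 2.4.6, scipy 1.17.1, matplotlib 3.10.9) made the summaries. The rule for naming took the 5 Pol III members, the 4 members of each class with the highest mean, in each comparison up to 5 called members per direction with the largest difference and groups apart, the 4 with the largest and the 4 with the smallest spread, up to 4 genes of a list by p, and the 3 members most alike in pattern to RN7SK, RMRP and RPPH1. Not all of these are printed. Members named outside the rule (the other SNORD88, U1, U2, U5, U6, SNORD116 and GAS5 members, SNORD35A, SNORD104 and the members with line differences in response) were chosen after their values were seen. Members and lists were chosen with earlier results of these data known. Alternatives were a pseudocount of 2, no low-value filter, the replicate block, voom, the members' median as covariate, recomputed TMM factors and leaving out libraries. The sequence of 1 member is not reported here.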

Additional observations from a re-analysis of the deposited data

Results flagged for a closer look

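For 17 results the response to a treatment differed between the lines by a limma F test in the fit of all 54 libraries. SNORA44 differed in its E2 response (adjusted p = 0.00353), with -0.53 in 22Rv1, 0.34 in C4-2 and 0.03 in LNCaP (log2, E2 minus vehicle). It also differed with Enza (adjusted p = 0.0121, limma, with -0.54, 0.3 and -0.17 in 22Rv1, C4-2 and LNCaP) and with E2+Enza (adjusted p = 0.00877, with -0.56, 0.33 and 0.03). In 22Rv1 SNORA44 had 1.17, 1.26 and 0.912 CPM with E2, against 2.09, 1.73 and 1.67 CPM with vehicle. In C4-2 it had 1.27, 1.5 and 1.55 CPM with E2, against 0.882, 1.18 and 1.03 CPM with vehicle.

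SNORD25 differed with E2 (adjusted p = 0.018, limma), with -0.39 in 22Rv1, 0.22 in C4-2 and -0.23 in LNCaP, and with Enza (adjusted p = 0.0448), with -0.21, 0.07 and -0.53. SNORD12C differed with E2 (adjusted p = 0.00589, limma), with -0.57, 0.36 and -0.24 in 22Rv1, C4-2 and LNCaP. SNORD12 gave -0.36, 0.32 and -0.38 with E2 (adjusted p = 0.0282, limma), and SNORD35B gave -0.53, 0.15 and -0.02 (adjusted p = 0.0372). The U6 pseudogene RNU6-33P gave -0.36 in C4-2 and 0.57 in LNCaP with E2 (adjusted p = 0.0311, limma) and was too low to be tested in 22Rv1 alone. SNORD77 differed with OSU+Enza (adjusted p = 0.0479, limma), with -0.45, 0.26 and -0.25 in 22Rv1, C4-2 and LNCaP. SNORD104 differed with E2 (adjusted p = 0.0119, limma), with -0.48, 0.28 and -0.16 in 22Rv1, C4-2 and LNCaP, and so did SNORD76 (adjusted p = 0.0338), with -0.5, 0.2 and 0.08. SNORD116-6 gave -0.34, 0.18 and -0.08 with E2 (adjusted p = 0.046, limma) and SNORA67 gave 0.28, -0.3 and 0.1 (adjusted p = 0.0386). SNORD45B, not tested in 22Rv1 alone, gave 0.53 in C4-2 and -0.23 in LNCaP with E2 (adjusted p = 0.0287, limma). SNORD79, not tested in C4-2 alone, gave -0.3 in 22Rv1 and -0.27 in LNCaP with E2 (adjusted p = 0.0413, limma) and -0.49 and -0.03 with E2+Enza (adjusted p = 0.0353). Its E2 values in these lines are alike, and its C4-2 effect, at a level under the limit, is not given here. The E2 call was lost with voom (adjusted p = 0.0684, limma). Without the libraries that stood apart, the E2 and E2+Enza calls were lost (0.0824 and 0.088).

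Of these 17, SNORA44 with E2 and with E2+Enza and SNORD104 and SNORD12C with E2 were called with every library left out in turn. With the members' median as covariate none of the 12 E2 results was called, nor SNORD79 with E2+Enza (adjusted p = 0.127, limma). SNORA44 with E2+Enza was called under it (adjusted p = 0.0323, limma), and so were SNORA44 and SNORD25 with Enza and SNORD77 with OSU+Enza (adjusted p = 0.0175, 0.0222 and 0.0493).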

How the results depend on the processing

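Leaving out 1 library at a time moved the number of members called. It ran from 7 to 24 for E2, 0 to 6 for Enza, 2 to 12 for E2+Enza and 1 to 12 for OSU+Enza in 22Rv1, 0 to 5, 0 to 10 and 3 to 12 for E2, Enza and OSU+Enza in C4-2, and 2 to 27, 6 to 28, 1 to 2 and 8 to 40 for E2, Enza, E2+Enza and OSU+Enza in LNCaP. Tests of a response differing between lines gave 3 to 21 for E2, 1 to 5 for Enza, 1 to 4 for E2+Enza and 0 to 4 for OSU+Enza. Between lines the counts were 107 to 126 for 22Rv1 against LNCaP, 95 to 105 for 22Rv1 against C4-2 and 68 to 90 for C4-2 against LNCaP.

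Without the low-value filter, which adds features to the adjustment, 4 members were called for OSU+Enza in 22Rv1, 1 and 4 for Enza and OSU+Enza in C4-2, and 3, 9 and 14 for E2, Enza and OSU+Enza in LNCaP, with 1 and 0 line differences for Enza and OSU+Enza. With the members' median as covariate the counts were 11, 0 and 16 for E2, Enza and OSU+Enza in 22Rv1, 2 and 14 for E2 and Enza in C4-2, 1 and 2 for Enza and OSU+Enza in LNCaP, 53 for C4-2 against LNCaP, and 0, 4, 1 and 5 line differences for E2, Enza, E2+Enza and OSU+Enza. That covariate also turned SCARNA21 with OSU+Enza in LNCaP to 0.126 (adjusted p = 0.636, limma), and SNORD25 and SCARNA9 in 22Rv1 against LNCaP to 0.015 (0.934) and 0.204 (0.0959), and it ended the LNCaP calls with Enza and OSU+Enza of SNORD88B (-0.37 and -0.34), SNORD88C (-0.56 and -0.24), SCARNA9 (-0.15 and -0.15), SNORD25 (-0.35 and -0.09) and SNORA71C (-0.21 and -0.25), and that of SNORA61 with OSU+Enza (-0.44). The cause was not tested. Without LNCaP vehicle 1, 22Rv1 OSU+Enza 2, C4-2 vehicle 1 and C4-2 Enza 2, a choice made after seeing the data that took the library farthest from its group mean by the Pol III members in each line and the C4-2 library with the conflicting tag (0.07), the counts were 2 for OSU+Enza in 22Rv1, 5 and 12 for E2 and OSU+Enza in C4-2, 7, 2 and 12 for Enza, E2+Enza and OSU+Enza in LNCaP, 53 for C4-2 against LNCaP, and 7, 0, 4 and 0 line differences for E2, Enza, E2+Enza and OSU+Enza. 22Rv1 Enza 2 (-0.37), 22Rv1 Enza 3 (0.24), LNCaP vehicle 3 (0.27) and LNCaP Enza 3 (-0.22) stayed in. voom gave 4 and 0 line differences for E2+Enza and OSU+Enza.

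Over all features the replicate numbers showed little pairing: of 45 same-numbered pairs in each line, 6 in 22Rv1, 8 in C4-2 and 5 in LNCaP had a correlation above 0.1. This does not settle it for the members. In LNCaP the median deviation of the RNU members in library 1 was below 0 in every group (-0.31 with vehicle to -0.02 with E2+Enza). In library 3 it ran from -0.02 with OSU+Enza to 0.33 with vehicle. Library 1 was of mixed sign in the other lines. With the replicate block, 28 members were called for OSU+Enza in LNCaP, against 22 without it. There were 23 for E2 in 22Rv1, as without it, and 0 line differences for OSU+Enza. Of 4127 values of single members under the alternatives, 3503 kept their direction and side of the threshold, 610 fell short of it, 11 newly passed it and 3 turned round. The median of all features moved by less than 0.1 (log2) with recomputed TMM factors, a pseudocount of 2 and the other settings tried. Depth limits the members under 1 CPM most, since 1 read is worth up to 0.0323 CPM.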
